A study of Mus with 6 samples.

Results

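The peroxiredoxins and the thioredoxin system were examined in mouse brain. The set was given as 10 gene symbols, namely the peroxiredoxin genes Prdx1 to Prdx6, the thioredoxin genes Txn1 and Txn2 and the thioredoxin reductase genes Txnrd1 and Txnrd2. A probe set under the symbol was available for 8 of the 10, each with a single probe set, among 19505 named genes in all. Prdx5 and Prdx6 were not analysed here. Peroxiredoxins reduce hydrogen peroxide through a reactive cysteine, which is oxidised in the reaction and, in the typical enzymes of the family, is reduced again by a thioredoxin. The thioredoxin is in turn recharged by a thioredoxin reductase, a selenoprotein that draws its electrons from NADPH. Prdx1, Prdx2, Txn1 and Txnrd1 encode mainly cytosolic proteins, Prdx3, Txn2 and Txnrd2 encode the mitochondrial chain, and Prdx4 encodes the peroxiredoxin of the endoplasmic reticulum. In the brain, Prdx2 is known as a neuronal enzyme, while Txnrd1, Prdx1 and Srxn1 are known targets of the transcription factor Nrf2.

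Total RNA of brain tissue from ICR mice, an outbred stock, was hybridised to 6 Affymetrix whole-transcript arrays, 2 in each of 3 groups. Control mice received saline by gavage. SCOP mice, labelled as the model group, received 2 mg/kg of the compound that the labels name scopoletin hydrobromide by intraperitoneal injection. CK mice received 40 mg/kg of ginsenoside CK (compound K, a metabolite of ginseng saponins) by daily gavage, which began days before the SCOP injections. From a later day of the course onward, the same SCOP injections were given after the CK dose. A group with CK but without SCOP was not among the samples. Brains were removed after behavioural testing, and the brain region, the age and sex of the mice and whether each sample was a single mouse or a pool are not stated in the labels or the methods. The deposited values are on the log2 scale, so that a difference of 1 is a doubling, and levels are compared here only within a gene.

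One array, SCOP replicate 2, was unlike the other 5. Its correlation with them over all named genes was 0.965 to 0.969, against 0.990 to 0.993 among the others. Its GC-rich background probes averaged 6.10 on the log2 scale, against 4.99 to 5.19 elsewhere. Labelled as brain, the samples carried the markers of brain cells on every array, with all 6 neuronal, all 8 astrocytic and all 7 measured oligodendrocyte markers above the level of the negative control probe sets throughout. That level, their 95th percentile, was 4.98 to 5.55 across the arrays. Some other lists were above it on every array only in part. These were 3 of 7 microglial, 4 of 6 endothelial, 1 of 3 measured oligodendrocyte precursor and 1 of 6 choroid plexus markers. For meningeal fibroblasts it was 2 of 5, and for erythroid cells 1 of 3 measured. The neuronal markers averaged 9.81 to 9.84 on the other arrays but 9.10 on SCOP replicate 2. The named genes also spread less on that array, with an interquartile range of 3.19 against 3.57 to 3.70 elsewhere. Whether this array-wide difference had a part in the marker means was not tested. In bulk tissue, fewer cells of a type and less RNA per cell cannot be told apart. All 8 measured genes lay above the negative control level on every array, with the smallest margins on SCOP replicate 2, where Txnrd1 was 0.69, Prdx3 0.77 and Txnrd2 0.83 above it.

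The first comparison, CK against SCOP, sets mice with both compounds beside mice with SCOP alone, for which the methods name no gavage. CK and the gavage therefore cannot be told apart there. Txnrd1, the cytosolic thioredoxin reductase, had the largest difference of the 8 genes. It was higher in CK by 0.58 on the log2 scale, or 1.498-fold, while Prdx4 (-0.31), Prdx1 (-0.28) and Txn1 (-0.15) had lower means in CK. None of the 8 passed an adjusted p under 0.05 in limma, and neither did any of the 19505 genes (0%). At an unadjusted p under 0.05, Txnrd1 was the single gene of the 8, beside 2.57% of all genes in either direction and 1.14% in the higher direction. The methods' t-test called 0 of the 8 and 584 of all genes at that level, and 0 after Benjamini-Hochberg adjustment. The 2 CK arrays lay above both SCOP arrays for 1 gene of the 8 and below both for 2, against 15.5% and 14.3% of all genes. The median change of the 8 was 0.04, with 5 above 0 and 3 below, and that of all genes was 0.02. Among the 10039 genes that were above the negative control level on at least 1 array, the median was 0.10 and 64.4% lay above 0, so the balance of the 8 was near that of measurable genes.

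The second comparison, SCOP against Control, sets SCOP mice beside Control mice, for which the methods name gavage but no injection. The compound, the injection itself and the gavage therefore cannot be told apart there. Again Txnrd1 differed most, with a mean lower by 0.52 in SCOP, followed by Prdx2 (-0.44) and the mitochondrial thioredoxin Txn2 (-0.30). Prdx1 (0.12) and Prdx4 (0.10) had slightly higher means. No gene passed the adjusted threshold (0%). At an unadjusted p under 0.05 there were 0 of the 8, beside 3.31% of all genes, which were 646 genes in limma and 552 with the methods' t-test. Both SCOP arrays lay below both Control arrays for 2 of the 8, Txn2 and Txnrd1, against 13.3% of all genes, and above both for 0 of the 8, against 15%. The median of the 8 was -0.15, with 6 below 0, while 63.2% of the 10039 measurable genes lay below 0 with a median of -0.10.

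The third comparison, CK against Control, sets mice that received both compounds beside mice that received saline by gavage and no named injection. CK, SCOP and the injection cannot be told apart there. This comparison shares the CK arrays with the first and the Control arrays with the second. Of the 8 genes, 7 had lower means in CK, by 0.03 to 0.23, and Txnrd1 alone was above 0, by 0.06, although it was -0.0098 when array medians were centred. The 2 CK arrays lay below both Control arrays for 4 of the 8, namely Prdx2, Prdx4, Txn1 and Txn2, against 15.7% of all genes, and above both for 0, against 18.4%. The median of the 8 was -0.15, beside 0.01 over all genes and 0.00 over measurable ones, of which 49.3% lay below 0. None of the 8 genes passed the adjusted threshold, in limma or with the methods' t-test. The adjusted p was 0.9999 for each of the 8 in limma, 0 of them had an unadjusted p under 0.05, beside 1.44% of all genes (280 genes), and no gene of the 19505 passed the adjusted threshold (0%). The methods' t-test called 1 of the 8, Txn1, and 975 genes in all at an unadjusted p under 0.05, and 0 after adjustment. Over the marker lists of other cell types, mean changes between CK and Control were -0.10 to 0.10, apart from the choroid plexus (0.29) and erythroid (-0.32) lists, and their part in the values of the 8 genes was not tested. Only 1 of 6 choroid plexus and 1 of 3 measured erythroid markers were above the negative control level on every array. The median moved from -0.07 without Control replicate 2 to -0.23 without Control replicate 1, and with 2 arrays against 2 an exact permutation test of a single gene cannot go below 0.333.

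**Figure D1:**
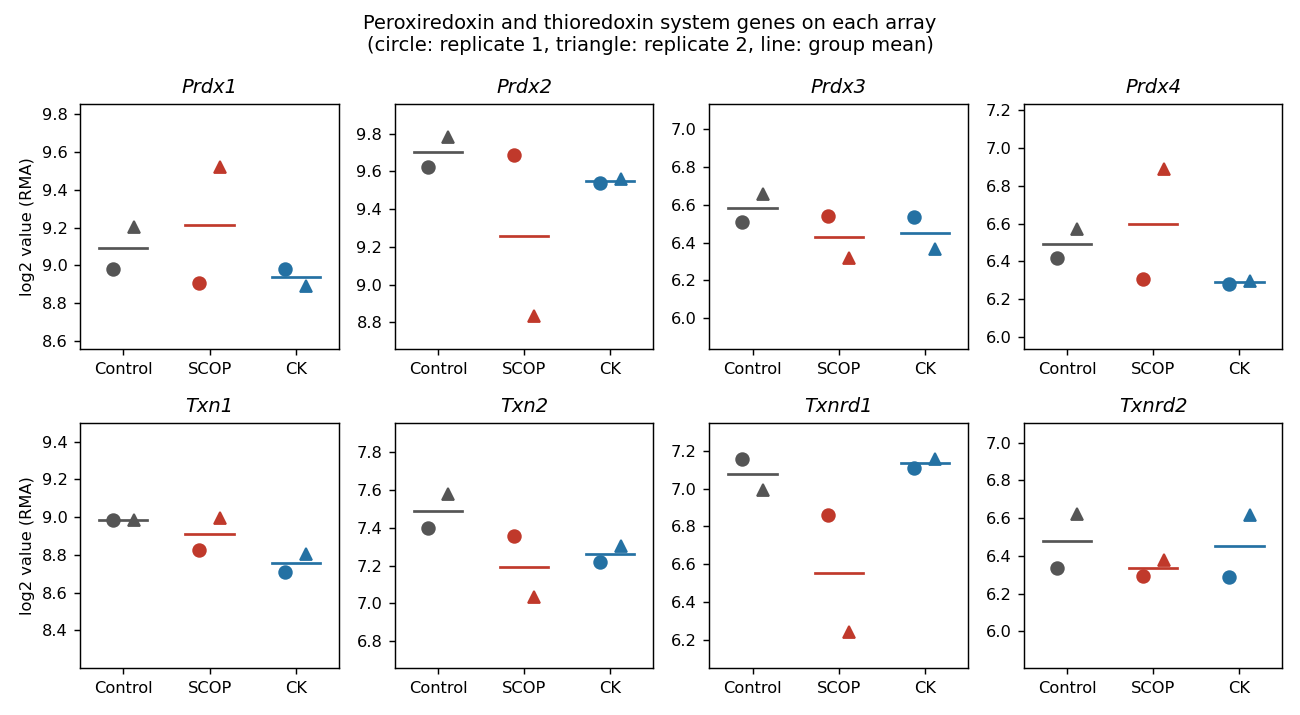
The log2 value (vertical axis, RMA scale) of each of the 8 genes is shown on the 6 arrays, with a circle for replicate 1, a triangle for replicate 2 and a line at the group mean (n = 2). Every panel spans the same number of log2 units. Both SCOP arrays of Txnrd1 lie below the other 4 arrays, and SCOP replicate 2 stands away from the rest for Prdx1, Prdx2 and Prdx4.

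Among the peroxidases, Prdx1 and Prdx2, the abundant cytosolic enzymes, differed between the SCOP replicates more than between groups. Prdx1 was 8.98 and 9.21 in Control, 8.91 and 9.52 in SCOP, and 8.98 and 8.89 in CK. All groups overlapped, and the highest and one of the lowest values both belonged to SCOP. Its means were 9.09 ± 0.16, 9.22 ± 0.43 and 8.94 ± 0.07 (SD, n = 2 each). The change of CK against SCOP was -0.28 with a 95% interval of -0.85 to 0.30 (limma, adjusted p = 0.89). Prdx2 was 9.62 and 9.78 in Control, 9.68 and 8.84 in SCOP, and 9.54 and 9.56 in CK. SCOP replicate 1 lay between the Control arrays and SCOP replicate 2 below every other array. The means were 9.70 ± 0.11 in Control, 9.26 ± 0.60 in SCOP and 9.55 ± 0.01 in CK (SD, n = 2). SCOP against Control gave -0.44 with an interval of -1.10 to 0.21 (limma, unadjusted p = 0.159, adjusted p = 0.86). The CK arrays lay closely together and below both Control arrays, with a change of -0.15 and an interval of -0.81 to 0.50, and the change was -0.07 without Control replicate 2 and -0.23 without Control replicate 1. The 2 cytosolic enzymes therefore had opposite signs in both comparisons that include SCOP and the same sign between CK and Control. Without SCOP replicate 2 the sign of Prdx1 turned in both comparisons with SCOP (0.03 in CK against SCOP and -0.18 in SCOP against Control). The sign of Prdx2 turned in CK against SCOP (-0.13), whereas in SCOP against Control it stayed below 0, at -0.02 without that array and -0.87 without SCOP replicate 1.

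Prdx3, the mitochondrial peroxiredoxin, was 6.51 and 6.66 in Control, 6.54 and 6.32 in SCOP, and 6.53 and 6.36 in CK, and every pair of groups overlapped. Its change was 0.02 in CK against SCOP with an interval of -0.45 to 0.49, which leaves room for a difference of either sign. The change was -0.09 without SCOP replicate 2. Prdx4, which acts in the endoplasmic reticulum alongside the protein disulfide isomerases, was 6.42 and 6.57 in Control, 6.31 and 6.89 in SCOP, and 6.28 and 6.30 in CK. Both CK arrays were below all 4 others, although the higher of them was close to SCOP replicate 1. The means were 6.49 ± 0.11, 6.60 ± 0.41 and 6.29 ± 0.01 (SD, n = 2). CK against SCOP gave -0.31 with an interval of -0.86 to 0.24 and CK against Control -0.20 with an interval of -0.76 to 0.35, neither past the threshold in limma (adjusted p = 0.89 and 0.9999). CK against SCOP moved to -0.02 when SCOP replicate 2 was left out and to -0.60 when SCOP replicate 1 was, and CK against Control was -0.13 without Control replicate 2. The exact permutation p was 0.333 for both, the smallest that 2 arrays against 2 allow.

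Txn1, the cytosolic thioredoxin that recharges Prdx1 and Prdx2, had its lowest values in CK. It was 8.98 and 8.99 in Control, 8.82 and 8.995 in SCOP, and 8.71 and 8.81 in CK. Both CK arrays were below the other 4, although the higher of them was close to SCOP replicate 1. The Control arrays were nearly identical, at 8.99 ± 0.0018 (SD, n = 2), against 8.91 ± 0.12 in SCOP and 8.76 ± 0.07 in CK. Txn1 had the largest difference of the 8 between CK and Control, -0.23 with a 95% interval of -0.68 to 0.22 (limma, unadjusted p = 0.271, adjusted p = 0.9999). It is the gene that the methods' t-test called, a test that takes the spread from the 4 arrays of that gene alone. In CK against SCOP the change was -0.15 with an interval of -0.60 to 0.29, and it moved to -0.07 when SCOP replicate 2 was left out and to -0.24 when SCOP replicate 1 was.

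Txn2, the thioredoxin of mitochondria, was lower than Control in both other groups. Its values were 7.40 and 7.58 in Control, 7.36 and 7.04 in SCOP, and 7.22 and 7.31 in CK. The Control arrays were above all 4 others. SCOP against Control gave -0.30 with an interval of -0.78 to 0.19 (limma, unadjusted p = 0.197, adjusted p = 0.86), and CK against Control -0.23 with an interval of -0.71 to 0.26 (adjusted p = 0.9999). The former moved to -0.13 when SCOP replicate 2 was left out and to -0.46 when SCOP replicate 1 was, and the latter -0.14 without Control replicate 2. These comparisons share the Control arrays. CK and SCOP overlapped, with a change of 0.07 and an interval of -0.42 to 0.55, which became -0.09 without SCOP replicate 2.

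Txnrd1 followed a different order, with SCOP at the bottom. It was 7.16 and 6.99 in Control, 6.86 and 6.24 in SCOP, and 7.11 and 7.16 in CK. Both SCOP arrays were below the other 4, and the Control and CK arrays overlapped. The means were 7.08 ± 0.12 in Control, 6.55 ± 0.44 in SCOP and 7.13 ± 0.03 in CK (SD, n = 2). CK against SCOP gave 0.58 with a standard error of 0.25 and a 95% interval of 0.01 to 1.15 (limma, unadjusted p = 0.0455, adjusted p = 0.89, exact permutation p = 0.333). SCOP against Control gave -0.52 with an interval of -1.09 to 0.04 (unadjusted p = 0.0659, adjusted p = 0.86). CK against Control gave 0.06 with an interval of -0.51 to 0.63, which leaves room for a difference of either sign. Both contrasts with SCOP rest on the same SCOP arrays, and leaving out SCOP replicate 2 gave a change of CK against SCOP of 0.27, while leaving out SCOP replicate 1 gave 0.89. The unadjusted p of CK against SCOP no longer passed 0.05 with any of the 3 other scalings, with only the 4 arrays compared or with any array left out except SCOP replicate 1.

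Txnrd2, the mitochondrial reductase, did not separate any groups. It was 6.34 and 6.62 in Control, 6.29 and 6.38 in SCOP, and 6.29 and 6.62 in CK. Control and CK each held 1 array at 6.62 and 1 near 6.3, so their means of 6.48 ± 0.20 and 6.45 ± 0.23 (SD, n = 2) were close beside that spread. The changes were 0.12 in CK against SCOP, -0.14 in SCOP against Control and -0.03 in CK against Control, with adjusted p from 0.896 to 0.9999 in limma. The 3 genes of the mitochondrial chain, Prdx3, Txn2 and Txnrd2, all had means below Control in both SCOP (-0.15, -0.30 and -0.14) and CK (-0.13, -0.23 and -0.03). Of these, only Txn2 had groups that did not overlap. Control replicate 2 held the highest value of each of the 3 genes. With 1 array left out, the Txnrd2 change reached -0.0005 in SCOP against Control and 0.14 in CK against Control. Of measurable genes, 63.2% lay below 0 in SCOP against Control and 49.3% in CK against Control.

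**Figure D2:**
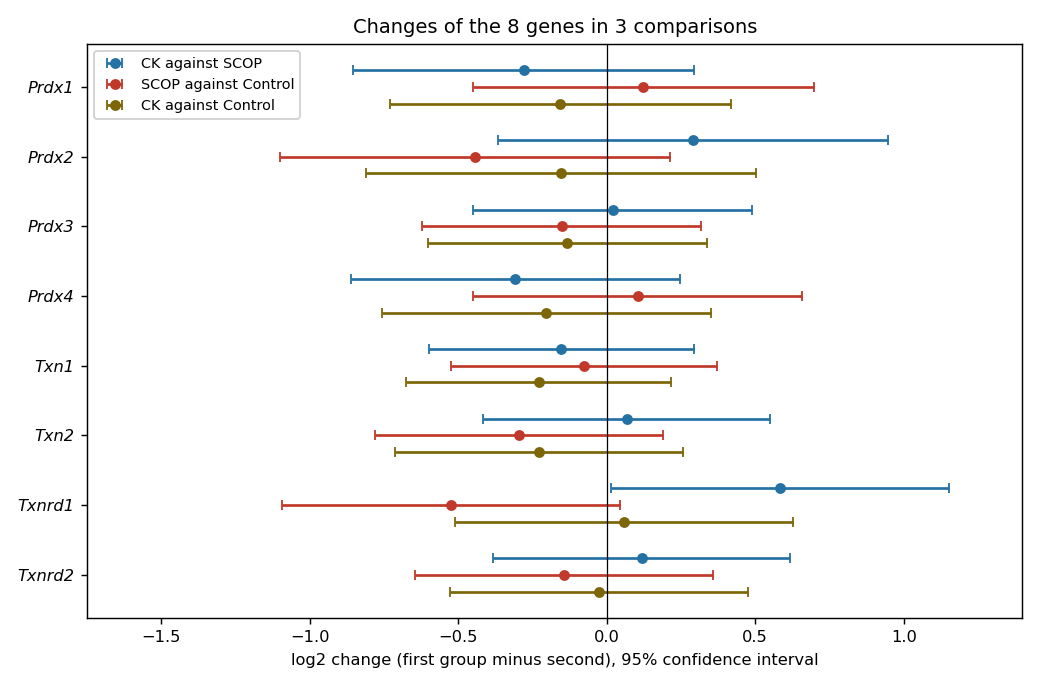
The log2 change (horizontal axis, first group minus second) of each gene in the 3 comparisons is shown as a point with its 95% confidence interval from limma, fitted on all 6 arrays. Every interval crosses 0 except that of Txnrd1 in CK against SCOP, which runs from 0.01 to 1.15.

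For most of the 8 genes, the larger share of the differences that involve SCOP came from SCOP replicate 2. On that array, 7 of the 8 genes lay outside the range of the other 5 arrays (87.5%), beside 65.8% of all genes and 76.1% of measurable ones, and their median absolute distance from the mean of the other arrays was 0.43, beside 0.40 for measurable genes. Control replicate 2 was next, with 4 of the 8 outside the range of the others, beside 28.1% of measurable genes. On SCOP replicate 2, Txnrd1 was 0.81 and Prdx2 0.80 below the mean of the other 5 arrays, and Txn2 (-0.34) and Prdx3 (-0.21) were also below them. Prdx1 and Prdx4 were 0.53 and 0.51 above, and Txn1 0.13 above. Txnrd2 was inside the range. The neuronal markers were lower by 0.72 on the same array and the oligodendrocyte markers by 0.26. The astrocyte markers differed by -0.03 and the microglial markers by -0.16. The oligodendrocyte precursor markers (-0.56) and the endothelial markers (-0.33) were lower too, while the meningeal fibroblast markers differed by 0.05. Choroid plexus markers averaged 5.40 there against 5.92 to 6.57 elsewhere, with 1 of the 6 dim on every array. The 3 measured erythroid markers averaged 4.99 against 4.37 to 4.92, with 1 of the 3 dim. Only 1 of 3 measured precursor, 1 of 6 choroid plexus and 1 of 3 erythroid markers were above the negative control level on every array. On SCOP replicate 2 that level was 5.55, above the means of these 3 lists (5.05 for the precursors). The erythroid mean lay below the level on all 6 arrays. Over the 6 neuronal markers, the mean change was 0.35 in CK against SCOP, -0.37 in SCOP against Control and -0.01 in CK against Control. Whether the displacement of neuronal markers or of background on SCOP replicate 2 had a part in the values of Txnrd1, Prdx2, Prdx1 and Prdx4 was not tested.

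**Figure D3:**
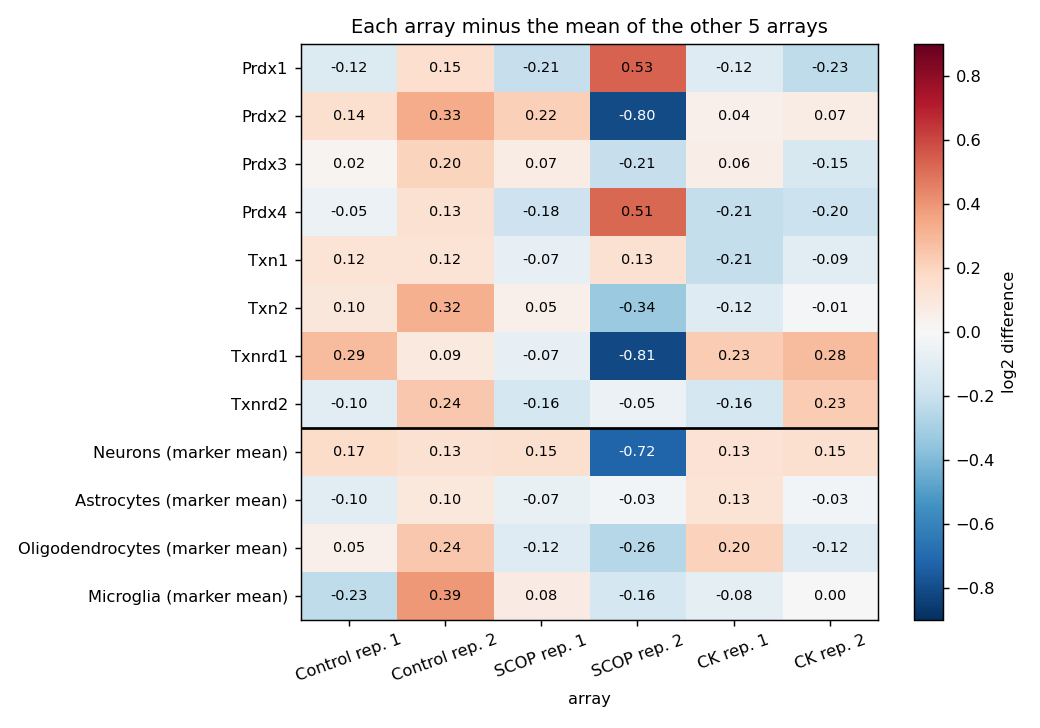
Each cell gives the log2 value on 1 array minus the mean of the other 5 arrays, with arrays in columns. The 8 genes are above the line and the means of 4 marker lists below it. SCOP replicate 2 holds the strongest colours, at 0.53 for Prdx1 and -0.81 for Txnrd1, beside -0.72 for the neuronal markers.

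Without SCOP replicate 2, SCOP rests on 1 array, which is assumed to vary as the other groups do. The remaining SCOP array was then below the Control mean for all 8 genes, with a median of -0.17. Of the 10039 measurable genes, 4836 lay below 0, with a median of 0.01. Over all 6 arrays, SCOP replicate 1 was outside the range of the others for 0 of the 8, beside 29.7% of measurable genes. Control replicate 2 was outside it for 4, beside 28.1%. The changes of SCOP against Control were small for Prdx2 (-0.02) and Prdx3 (-0.04) and largest for Txnrd1 (-0.22), Txnrd2 (-0.19), Prdx4 (-0.19) and Prdx1 (-0.18). Prdx1 and Prdx4, whose means were above Control with all arrays, thus changed sign. In CK against SCOP, 3 of the 8 were then above 0 and 5 below, with a median of -0.04. Prdx2 went from 0.29 to -0.13 and Prdx1 from -0.28 to 0.03. Txnrd1 kept its direction at 0.27, as did Txnrd2 (0.16), Txn1 (-0.07) and Prdx4 (-0.02). At an unadjusted p under 0.05, 0 of the 8 were called in each of the 3 comparisons, beside 3.76%, 4.74% and 5.18% of all genes for CK against SCOP, SCOP against Control and CK against Control. The values of CK against Control do not involve the SCOP arrays, which enter only its shared spread.

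**Figure D4:**
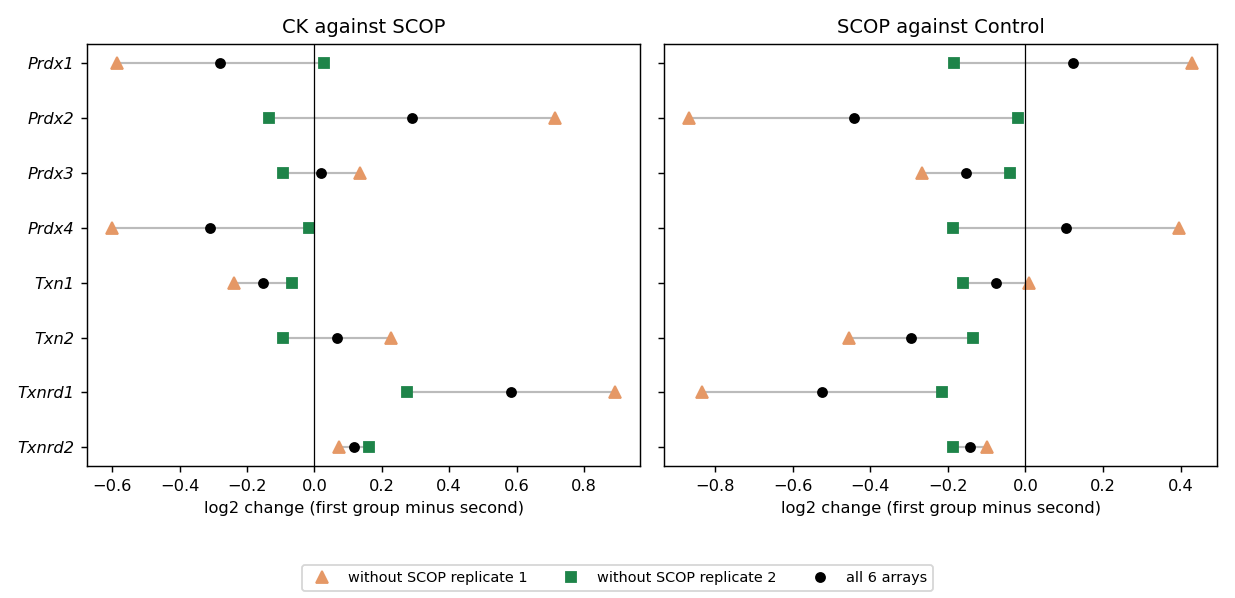
The log2 change (horizontal axis) of each gene is shown with all 6 arrays (black circle), without SCOP replicate 1 (orange triangle) and without SCOP replicate 2 (green square), for CK against SCOP on the left and SCOP against Control on the right. The horizontal axes of the panels differ. Prdx1, Prdx2, Prdx3 and Txn2 span both sides of 0 in CK against SCOP, as do Prdx1, Prdx4 and Txn1 in SCOP against Control. Txnrd1 and Txnrd2 each stay on the same side of 0 within both panels, with Txnrd1 from 0.27 to 0.89 on the left.

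Around the 8 genes, 70 partner genes were listed in 7 groups, of which 65 were measured. None passed the adjusted threshold in any comparison with all arrays. At an unadjusted p under 0.05 there was 1 in CK against SCOP, 3 in SCOP against Control and 0 in CK against Control, beside the 2.57%, 3.31% and 1.44% of all genes given above. Without SCOP replicate 1 these counts were 20, 18 and 2, beside 34.5%, 34.5% and 5.18% of all genes, and without SCOP replicate 2 they were 3, 3 and 2, beside 3.76%, 4.74% and 5.18%. The 3 calls in SCOP against Control were not kept when either Control array was left out. With either CK array left out, only Txnrd3 of the 3 was still called there. The call in CK against SCOP was not kept without CK replicate 1. The medians of the 65 were 0.03, -0.04 and -0.04. The first group holds regulators and binding partners of peroxiredoxins and thioredoxin. Txnip, the thioredoxin-interacting protein that binds and inhibits thioredoxin, was 6.59 and 6.92 in Control, 6.41 and 5.74 in SCOP, and 6.35 and 6.67 in CK. Both SCOP arrays were below both Control arrays, and SCOP and CK overlapped. Its change of SCOP against Control was -0.68 with a standard error of 0.28 (limma, unadjusted p = 0.0406, adjusted p = 0.86), and it moved to -0.34 when SCOP replicate 2 was left out and to -1.02 when SCOP replicate 1 was. Srxn1, the sulfiredoxin that repairs over-oxidised peroxiredoxins, was 7.06 and 7.33 in Control, 7.16 and 6.43 in SCOP, and 6.96 and 7.24 in CK. All groups overlapped, and its change of CK against SCOP went from 0.31 to -0.06 without SCOP replicate 2. Map3k5, the stress kinase ASK1 that reduced thioredoxin holds inactive, was 5.64 and 5.75 in Control, 5.58 and 4.61 in SCOP, and 5.47 and 5.55 in CK. On SCOP replicate 2 it was below the negative control level, and without that array its change of SCOP against Control went from -0.60 to -0.12. Of the 8 measured genes of this group, 7 had lower means in SCOP than in Control, with a median of -0.26, and 4 of 8 did so without SCOP replicate 2, with a median of 0.00.

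Of the further reductases and thioredoxin-like genes, Txnrd3, the thioredoxin glutathione reductase best known from testis, was the partner called in CK against SCOP, with a change of -0.77 (limma, unadjusted p = 0.0107, adjusted p = 0.89) that was -0.50 without CK replicate 1. It was also called in SCOP against Control, at 0.57 (unadjusted p = 0.0411, adjusted p = 0.86). It was 3.70 and 3.65 in Control, 4.30 and 4.18 in SCOP, and 3.20 and 3.74 in CK. All 6 values lay below the negative control level, so they do not show that the gene was expressed. The same holds for Rrm2, a ribonucleotide reductase subunit, called in SCOP against Control at 0.69 (unadjusted p = 0.033, adjusted p = 0.86) and at 0.31 without SCOP replicate 2. Among the 4 measured genes of the group with the glutaredoxins, Glrx2, the mitochondrial glutaredoxin, was 8.70 and 8.87 in Control, 8.68 and 8.65 in SCOP, and 8.56 and 8.46 in CK. The CK arrays were below the other 4, and CK against Control gave -0.27 with an interval of -0.72 to 0.17. Msrb1, a selenoprotein methionine sulfoxide reductase that depends on thioredoxin, was 6.69 and 6.82 in Control, 6.77 and 7.06 in SCOP, and 6.66 and 6.45 in CK, again with both CK arrays lowest. Its change of CK against SCOP was -0.36 (unadjusted p = 0.121, adjusted p = 0.89) and -0.22 without SCOP replicate 2. Txnl4a, a thioredoxin-fold component of the spliceosome, was 7.49 and 7.20 in Control, 7.17 and 6.61 in SCOP, and 7.11 and 6.99 in CK, with the Control arrays above the other 4. Txndc2, Txndc8 and Msrb2 lay below the negative control level on all 6 arrays.

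The thiol oxidoreductases of the endoplasmic reticulum, among which Prdx4 works, numbered 21 measured genes. Of these, 14 had higher and 7 lower means in CK than in Control, beside 53.2% of all genes above 0. Their median was 0.08, and 11 of the 21 were above 0 with array medians centred. The CK arrays lay above both Control arrays for 7 and below both for 1, against 18.4% and 15.7% of all genes, and 0 of the 21 had an unadjusted p under 0.05. Erp44, which retains Prdx4 in the secretory pathway, was 6.52 and 6.29 in Control, 6.27 and 5.29 in SCOP, and 6.53 and 6.30 in CK. Its change of CK against SCOP was 0.63 (unadjusted p = 0.0808, adjusted p = 0.89) and 0.15 without SCOP replicate 2, where it lay below the negative control level. Txndc5, a protein disulfide isomerase, behaved similarly, with 0.39 and 0.05. Tmx3, a membrane-bound thioredoxin-related protein, was 7.16 and 7.31 in Control, 7.31 and 7.84 in SCOP, and 7.18 and 7.13 in CK, and its change of CK against SCOP went from -0.42 to -0.15 without that array.

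Genes that supply the system were also measured. For selenocysteine incorporation, on which both reductases depend, 2 of 8 genes were above 0 and 6 below in SCOP against Control, with a median of -0.03, and 0 passed an unadjusted p under 0.05 in any comparison. Trnau1ap, which lay near the negative control level, is a factor that associates with the selenocysteine tRNA and was 5.20 and 4.93 in Control, 5.45 and 5.63 in SCOP, and 5.34 and 5.18 in CK. SCOP was above both other groups, with a change of 0.48 against Control (unadjusted p = 0.0504, adjusted p = 0.86) that was 0.39 without SCOP replicate 2. Eefsec, the elongation factor that delivers that tRNA, was -0.31 in CK against Control, with both CK arrays lowest, although the change was -0.14 without CK replicate 1 and -0.48 without CK replicate 2. Secisbp2l, related to the protein that binds the selenocysteine insertion element, was -0.13 in that comparison. Of 6 measured genes of NADPH supply, 3 were above 0 and 3 below in each of the 3 comparisons. Idh1, the cytosolic isocitrate dehydrogenase, was 7.08 and 7.12 in Control, 7.03 and 6.98 in SCOP, and 6.91 and 6.89 in CK. Its groups did not overlap, with CK lowest and Control highest, and CK against Control gave -0.20 with an interval of -0.63 to 0.23. The malic enzyme Me1 differed by 0.28 there, with overlapping arrays, and by 0.01 without Control replicate 2.

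For each of the 8 genes, the genes with the most similar values over the 6 arrays were sought, after centring each gene on its own mean. Candidates were measurable genes, whose range could be smaller than the gene's own but not below a set fraction of it. The nearest were Rps29 to Prdx1 (mean absolute difference 0.017 on the log2 scale), Fig4 to Prdx2 (0.026), Snn to Prdx3 (0.020), Eif3m to Prdx4 (0.023), Pmpca to Txn1 (0.023), Pum3 to Txn2 (0.023), Ccdc184 to Txnrd1 (0.042) and Pcyt1a to Txnrd2 (0.033). The next were Mir692-3, Opcml, Rhot1, Anapc13, Cpe, Nfkbib, Sec24c and Tmem196 in the same order, at 0.021 to 0.044. None of these 16 is another gene of the set. The likeness was measured over 6 arrays, of which SCOP replicate 2 carried most of the range for Prdx1, Prdx2, Prdx4 and Txnrd1, and it was chosen from 6717 to 9917 candidates for each gene.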

How the data were processed

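Expression was measured in brain RNA of 6 samples, 2 each of the Control, SCOP and CK groups. The deposited table holds a log2 value for each probe set and array, which the authors obtained with RMA (named in the submitters' processing notes). RMA normalizes between arrays, so differences in total RNA cannot be read from them. Array medians over all probe sets were 4.06 to 4.27, and the values were not normalized again. Of 29129 probe sets, 22206 were for transcripts and 5222 were negative controls, and 19572 carried a single symbol in the platform annotation, all of which matched the RefSeq table by Entrez identifier. The probe set with the highest mean was kept per symbol, which left 19505 genes. On every array 9466 of them (48.5%) did not reach the 95th percentile of the negative controls and are called dim, and the other 10039 are called measurable. No filter was applied before the test.

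A means model over the 6 arrays gave all 3 comparisons, using limma 3.58.1 under R 4.3.3 (lmFit, then eBayes, with 3 residual and 5.08 prior degrees of freedom). Adjusted p-values are Benjamini-Hochberg values over the 19505 genes. The script was tested on simulated data. The labels call the samples biological replicates but do not tie them to single mice, so p-values measure only the spread between these samples. The number of arrays limits the precision. The genes and the partner lists were chosen with earlier results of these data known, and no list was tested as a set. Named were the 8 measured genes, Txnip, Srxn1 and Map3k5, up to 3 genes of each partner list with the smallest p, and the 2 nearest genes by pattern. Tried as alternatives were 3 scalings, dim genes removed, the mean over probe sets, the trend and robust options of eBayes, the replicate number as a block, a fit on the 4 arrays of a comparison alone, removal of single arrays and the methods' t-test. Alternatives for the partner lists and for counts over all genes were added after the values were seen.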

Additional observations from a re-analysis of the deposited data

How the results depend on the processing

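Of 360 combinations of a gene's change and an alternative, 340 kept their direction and 20 reversed. With array medians centred, Prdx3 in CK against SCOP became -0.024 and Txnrd1 in CK against Control -0.0098. With quantile and cyclic loess normalization, CK against SCOP became -0.097 and -0.087 for Prdx3 and -0.047 and -0.060 for Txn2, and SCOP against Control became 0.038 and 0.099 for Txn1. Leaving out 1 array at a time, CK against SCOP ranged from -0.59 to 0.027 for Prdx1, -0.13 to 0.71 for Prdx2, -0.094 to 0.13 for Prdx3, -0.094 to 0.23 for Txn2 and -0.045 to 0.28 for Txnrd2. SCOP against Control ranged from -0.18 to 0.43 for Prdx1, -0.19 to 0.40 for Prdx4 and -0.16 to 0.0094 for Txn1, and CK against Control from -0.025 to 0.14 for Txnrd1 and -0.19 to 0.14 for Txnrd2. The cause of these reversals was not tested.

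The single call at an unadjusted p under 0.05 in CK against SCOP, Txnrd1, became 0 with medians centred, quantile or cyclic loess normalization, only the 4 arrays compared or the methods' t-test, and ranged from 0 to 4 genes with arrays left out, with 4 without SCOP replicate 1, beside 34.5% of all genes and 43.9% of measurable ones, and 0 without any other array. In SCOP against Control the count of 0 became 1 (Txnrd1) with medians centred, beside 3.32% of all genes and 2.7% of measurable ones. In CK against Control the count of 0 became 1 (Txn1) with the methods' t-test, beside 5% of all genes. With medians centred, all 8 genes were below 0 in CK against Control, as were 6699 of the 10039 measurable genes, with a median of -0.22 for the 8.

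The count of genes past the adjusted threshold, 0 in each comparison, ranged from 0 to 3240 in CK against SCOP and from 0 to 3137 in SCOP against Control with arrays left out. Both highest counts arose without SCOP replicate 1, where SCOP replicate 2 alone stands for its group and is assumed to vary as the others do. Prdx2 (0.71 and -0.87, adjusted p = 0.0393 and 0.0244) and Txnrd1 (0.89 and -0.83, adjusted p = 0.0235 and 0.0276) then passed in limma. Over all alternatives the adjusted p of both genes reached 0.9999 in CK against SCOP, and in SCOP against Control it reached 0.998 for Prdx2 and 0.997 for Txnrd1.

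Among all genes at an unadjusted p under 0.05, the split of 223 higher and 279 lower in CK against SCOP became 179 and 352 with medians centred, 439 and 207 in SCOP against Control became 329 and 318, and 189 and 91 in CK against Control became 87 and 153. Same-numbered samples of different groups deviated together at correlations of 0.02, -0.0049 and -0.03, so the numbers were not taken to pair them. With the replicate block, 1, 0 and 0 of the 8 genes had an unadjusted p under 0.05 in the 3 comparisons in the order above, beside 2.69%, 3.26% and 1.29% of all genes, and no gene passed the adjusted threshold.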
